A study of Drosophila melanogaster with 4 samples.

Results

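The genes described here are 8 genes of the integrated stress response and its transcription factor ATF4 in Drosophila melanogaster, namely crc, PEK, Gcn2, PPP1R15, Thor, trbl, Gadd45 and Sesn. They were taken by name from the 17559 genes of the deposited expression table. The rule uses no measured value, but the set was put together with earlier results of these data known, so its counts beside the background are a description and not a blind selection. All 8 were found. PPP1R15 stands in the table under the older name Gadd34 and was matched through its gene ID, FBgn0034948. RNA was measured in wing imaginal discs, epithelial pouches of the larva from which the adult wing and the back of the thorax arise, from larvae in the third instar. There were 2 genotypes, a Paip1 mutant and the control strain y w, with 2 libraries of each. Paip1 is a partner of the poly(A)-binding protein, which coats the tail of mRNA and supports its translation. The labels name no Paip1 allele and leave unsaid if the genotypes share 1 genetic background, so effects of strain and of the mutation cannot be told apart. They also do not say whether the replicates came from separate collections of larvae, so the p-values rest on the spread among these 4 libraries, and that spread may be technical.

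The integrated stress response slows translation by phosphorylating the alpha subunit of eIF2, the factor that brings the initiator tRNA to the ribosome. In the fly the kinases are PEK, which sits in the endoplasmic reticulum membrane and answers to unfolded protein, and Gcn2, which answers to uncharged tRNA. PPP1R15 directs protein phosphatase 1 to eIF2alpha and so reverses the mark. When eIF2 activity is low, ribosomes pass the short upstream reading frames in the leader of crc, the fly ATF4, and translate the main reading frame. The crc protein then activates genes that include Thor, the fly 4E-BP. The levels given below are of mRNA, so they show neither phosphorylation of eIF2alpha nor the amount of crc protein.

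Levels are given in TPM, the length-corrected share of transcripts in a library, so levels of different genes can be set side by side. The listed values summed to 91.9% to 93.6% of the nominal TPM total in the mutant libraries and to 99.6% to 99.7% in the control libraries. The Paip1 transcript was at 2.37 and 2.22 TPM in the mutant libraries, against 112 and 121 TPM in the control libraries. Fold changes are limma estimates on log2(TPM + 1), with Benjamini-Hochberg adjustment over the 8605 genes tested and a threshold of 0.05 on the adjusted p. Of those genes 15.6% were higher and 29.1% lower in the mutant. Over all tested genes the log2 fold change had a median of -0.22, and rescaling the libraries by median ratios, which called 20.1% of genes higher, moved it to -0.06.

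Of the 8 genes, 6 were higher in Paip1 mutant discs, 0 were lower and 2 did not pass the threshold, against the background of 15.6% of tested genes called higher. The 6 formed 2 tiers by size. Gadd45, Thor and trbl were each more than 3-fold higher, where 9.73% of tested genes were called higher by at least 2-fold, while PPP1R15, crc and PEK were each about 1.5 to 1.6 times the control level. Gcn2 and Sesn made up the remainder. The median log2 fold change of the 8 genes was 0.65, beside -0.22 for all tested genes. Gadd45, Thor and trbl were called whichever library was left out. They were the 3 called higher without control replicate 1 (background 7.05%), control replicate 2 (7.37%) or mutant replicate 1 (10.2%), and without mutant replicate 2 the calls numbered 4 (12.7%), the added one being PPP1R15.

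**Figure D1:**
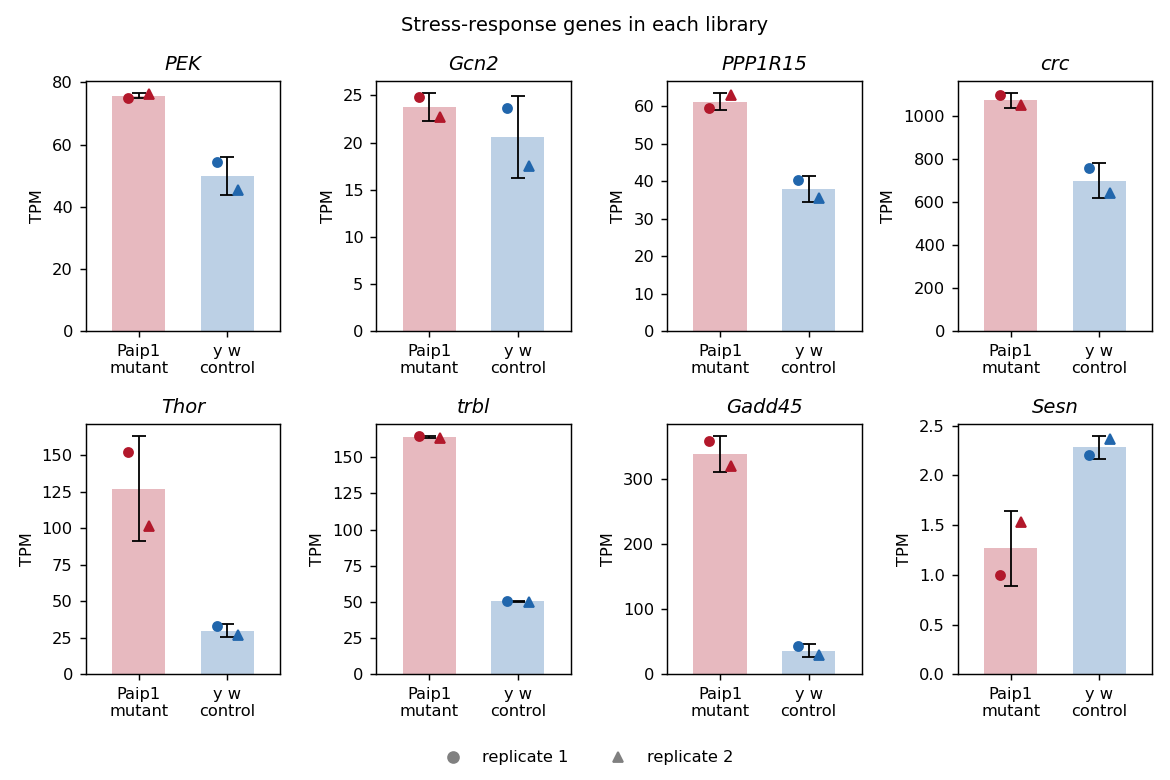
TPM of each of the 8 genes in Paip1 mutant and y w control libraries; bars are group means with SD over 2 libraries, and symbols are the libraries. The mutant libraries lie above the control libraries for PEK, PPP1R15, crc, Thor, trbl and Gadd45, overlap them for Gcn2 and lie below them for Sesn.

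Among the eIF2alpha kinases, PEK was at 75.1 and 76.3 TPM in the mutant libraries, against 54.3 and 45.5 TPM in the control libraries. Both mutant libraries were above both control libraries, as they were for 25.1% of the genes tested. The mean was 75.7 ± 0.884 TPM in the mutant and 49.9 ± 6.26 TPM in the control (SD, n = 2 each here and throughout), a log2 fold change of 0.60 (SE 0.13, adjusted p = 0.0181, limma). Gcn2, the kinase of amino acid shortage, was at 24.8 and 22.8 TPM in the mutant libraries, against 23.7 and 17.5 TPM in the control libraries. The groups overlapped, since mutant replicate 2 was below control replicate 1. Its log2 fold change was 0.21, with a 95% interval from -0.22 to 0.65 (adjusted p = 0.343, limma), which leaves room for a change as large as that of PEK. Gcn2 was the less abundant kinase in every library, and the ratio of PEK to Gcn2 was 3.02 and 3.35 in the mutant libraries and 2.29 and 2.60 in the control libraries. With 2 libraries against 2, an exact permutation test on such a ratio cannot give a p below 0.333, so this ratio and those below are given as values.

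The phosphatase subunit PPP1R15 was at 59.6 and 62.8 TPM in the mutant libraries, against 40.3 and 35.4 TPM in the control libraries. The groups did not overlap. The mean was 61.2 ± 2.31 TPM in the mutant and 37.8 ± 3.44 TPM in the control (log2 fold change 0.68, SE 0.12, adjusted p = 0.0106, limma). The ratio of PPP1R15 to PEK was 0.793 and 0.823 in the mutant libraries and 0.741 and 0.778 in the control libraries, with both mutant ratios slightly above both control ratios.

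The transcription factor gene crc was the most abundant of the 8 in every library. It was at 1099 and 1051 TPM in the mutant libraries, against 760 and 642 TPM in the control libraries. The lowest mutant library was 1.38 times the highest control library. The mean was 1075 ± 33.9 TPM in the mutant and 701 ± 83.1 TPM in the control (log2 fold change 0.62, SE 0.12, adjusted p = 0.0142, limma). By mean level crc ranked 144th of the tested genes in the mutant and 161st in the control. The ratio of crc to PEK was 14.6 and 13.8 in the mutant libraries, which spans the 14.0 and 14.1 of the control libraries.

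The calls of crc and PEK were lost whichever library was left out, and that of PPP1R15 in 3 of the 4 such fits. The adjusted p of crc was 0.0576 and 0.111 without control replicates 1 and 2, and 0.0818 and 0.0566 without mutant replicates 1 and 2. That of PEK was 0.0722 and 0.147 without control replicates 1 and 2, and 0.0833 and 0.0718 without mutant replicates 1 and 2. That of PPP1R15 was 0.0668 and 0.104 without control replicates 1 and 2 and 0.0532 without mutant replicate 1, but 0.047 without mutant replicate 2. The log2 fold changes stayed between 0.47 and 0.77 in all these fits. Under median-ratio scaling they were 0.80 for crc, 0.77 for PEK and 0.85 for PPP1R15, and all 3 were called.

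**Figure D2:**
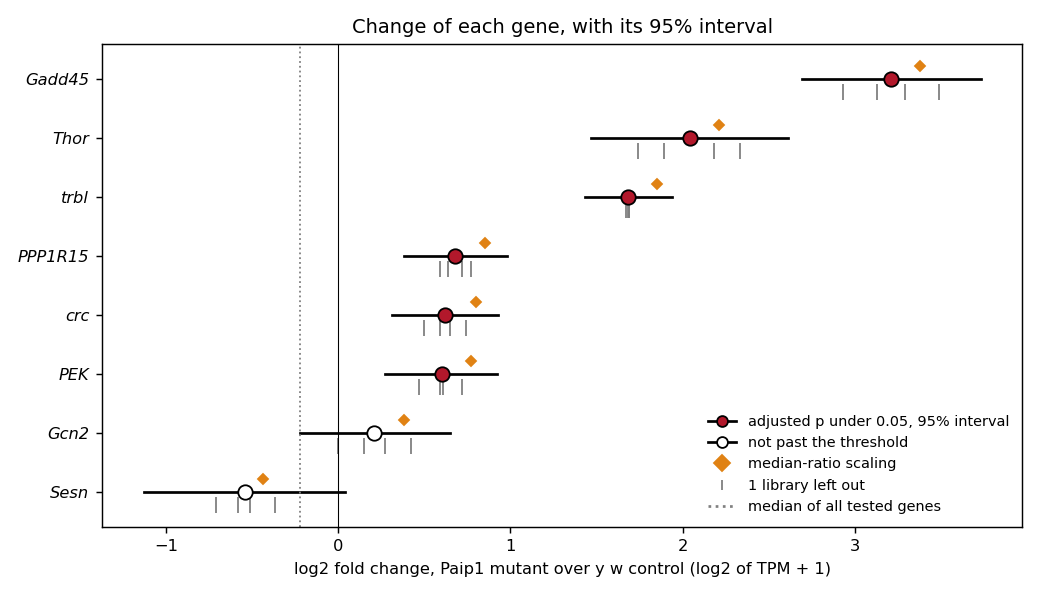
Log2 fold change of each of the 8 genes, Paip1 mutant over y w control on log2(TPM + 1), with the 95% interval as a line; diamonds show median-ratio scaling and ticks the fits with 1 library left out. Gadd45, Thor and trbl sit at 3.21, 2.04 and 1.68, PPP1R15, crc and PEK between 0.60 and 0.68, and the intervals of Gcn2 and Sesn include 0.

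Thor encodes the small protein that holds the cap-binding factor eIF4E away from eIF4G. It was at 152 and 101 TPM in the mutant libraries, against 32.9 and 26.6 TPM in the control libraries. The groups did not overlap, although mutant replicate 1 was 1.5 times mutant replicate 2. Its log2 fold change was 2.04 (SE 0.23, 95% interval 1.47 to 2.61, adjusted p = 0.00299, limma), more than that of 96.4% of tested genes. The transcript of its main target, eIF4E1, was at 314 and 357 TPM in the mutant libraries and at 380 and 379 TPM in the control libraries (log2 fold change -0.18, adjusted p = 0.23, limma). The ratio of Thor to eIF4E1 mRNA was therefore 0.486 and 0.284 in the mutant libraries, against 0.0864 and 0.0703 in the control libraries.

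The pseudokinase gene trbl, whose product promotes loss of the mitotic phosphatase String and of the C/EBP factor Slbo and restrains Akt, varied least within groups. It was at 164 and 163 TPM in the mutant libraries, against 50.8 and 50.0 TPM in the control libraries. The libraries of a group differed by at most 1.02 times, and the lowest mutant library was 3.22 times the highest control library. Its log2 fold change was 1.68 (SE 0.10, 95% interval 1.43 to 1.94, adjusted p = 0.000509, limma), more than that of 94.9% of tested genes.

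Gadd45, whose mammalian relatives bind and activate a MAP kinase kinase kinase upstream of p38 and JNK, differed the most of the 8. It was at 358 and 319 TPM in the mutant libraries, against 43.6 and 29.2 TPM in the control libraries. The lowest mutant library was 7.33 times the highest control library. The ratio of group means was 9.30 and the log2 fold change 3.21 (SE 0.21, 95% interval 2.69 to 3.73, adjusted p = 0.000639, limma), more than that of 98.6% of tested genes. By mean level Gadd45 ranked 282nd of the tested genes in the mutant and 3451st in the control.

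Sesn encodes Sestrin, which restrains TOR signalling and limits oxidative damage, and it was scarce in these discs. It was at 1.00 and 1.53 TPM in the mutant libraries, against 2.20 and 2.36 TPM in the control libraries. Both mutant libraries were below both control libraries, as they were for 52.8% of tested genes. The log2 fold change of -0.54 did not pass the threshold (SE 0.23, 95% interval -1.13 to 0.04, adjusted p = 0.107, limma). At this level the pseudocount of 1 TPM matters, and with 0.1 TPM in its place the estimate was -0.83 (adjusted p = 0.107, limma). Sesn alone among the 8 had its mutant libraries on the low side.

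The order of levels within the 8 differed between genotypes. In the mutant it ran from crc through Gadd45, trbl, Thor, PEK, PPP1R15 and Gcn2 to Sesn, with no overlap of libraries between neighbours. In the control crc was again highest and Gcn2 and Sesn lowest, but the 5 genes between them lay close together, with group means from 29.8 to 50.4 TPM. There the library ranges of trbl and PEK overlapped, as did those of PPP1R15 and Gadd45 and of Gadd45 and Thor. The library ranges of neighbours did not overlap elsewhere in the control.

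In the authors' deposited table the same 6 genes had adjusted p-values under 0.05 and a higher level in the mutant, as did 12.1% of all 17559 genes there. Only 8605 of those genes passed the filter of the limma test, as all 8 did. Shares of the authors' calls among the genes that passed were not taken. The table's log2 fold changes were 3.38 for Gadd45, 2.28 for Thor, 1.87 for trbl, 0.87 for PPP1R15, 0.78 for PEK and 0.77 for crc. Adjusted p-values in the authors' deposited table ran from 1.78e-57 for trbl to 1.83e-07 for crc. The authors' deposited table marks 3 of the 8 as significant, Gadd45, Thor and trbl, against 11.0% of all its genes, and leaves crc, PEK and PPP1R15 unmarked. The smallest absolute log2 fold change among the 1923 genes it marks is 1.00. For Gcn2 and Sesn the authors' deposited table gives log2 fold changes of 0.38 and -0.74, with adjusted p-values of 0.112 and 0.14.

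The 8 genes lie on 4 chromosome arms and, per the Ensembl annotation of dm6 coordinates, all are protein-coding. On 2L, Thor spans 3478434 to 3479612 on the plus strand and crc 21310866 to 21319527 on the plus strand. On 2R, Gadd45 spans 7249161 to 7250655 on the plus strand, Sesn 23713900 to 23734846 on the plus strand and PPP1R15 23975599 to 23977255 on the minus strand. On 3L, trbl spans 20396288 to 20401609 on the minus strand. On 3R, PEK spans 5458563 to 5464753 on the minus strand and Gcn2 31395660 to 31402013 on the plus strand. The longest annotated 5′ leader was 1148 bases for crc and 1068 bases for Sesn, longer than those of 96.2% and 95.3% of tested coding genes. The other 6 had longest leaders between 182 and 364 bases, where the median of tested coding genes was 189 bases.

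The Gcn2 value carries a limit from its position. Its exons share 454 bases, of 5743 exonic bases in all, with exons of PNPase on the opposite strand, a polynucleotide phosphorylase gene. PNPase was at 3816 and 2951 TPM in the mutant libraries, against 37.4 and 31.3 TPM in the control libraries (log2 fold change 6.57, SE 0.17, adjusted p = 4.43e-05, limma). Whether reads were assigned by strand is not given in the sources used here, and the part of PNPase reads in the Gcn2 value was not tested. Exons of crc and Sesn overlap same-strand annotated genes, CG46314 and CG46429, that have no row in the table, by 2515 and 3097 bases. Sesn also shares 109 exon bases with mir-4979 on the opposite strand, which is listed at 0 in all 4 libraries. The other 5 genes overlap no annotated gene. The nearest coding gene to Gadd45 in the table on the side of lower coordinates is the adenylate kinase gene Adk3, 3384 bases away, which was at 185 and 167 TPM in the mutant libraries and at 23.1 and 25.4 TPM in the control libraries (adjusted p = 0.000193, limma). On the other side CG1850, 8211 bases away, was at 2.12 and 1.11 TPM in the mutant libraries and at 0.14 and 0.11 TPM in the control libraries. A raised neighbour was not particular to Gadd45. Sox14, 1545 bases from PPP1R15, was at 37.4 and 50.9 TPM in the mutant libraries and at 19.6 and 16.9 TPM in the control libraries (adjusted p = 0.00702, limma). The neighbour of PPP1R15 on the other side, mr, was at 22.3 and 22.7 TPM in the mutant libraries and at 30.5 and 28.2 TPM in the control libraries.

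For the genes around the 8, 79 names in 9 lists were looked for, 78 were found and 68 were tested. Of the 68, 15 were higher and 14 lower in the mutant, against a background of 15.6% higher and 29.1% lower. With a library left out, fewer of all tested genes were called in either direction. Each list count below is therefore to be read beside 15.6% and 29.1% only where no library was left out. Without control replicate 1 the counts were 7 and 3, without control replicate 2 they were 8 and 3, and without mutant replicate 1 they were 11 and 7.

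Partners of crc and factors known to act on Thor, Sesn and Gadd45 were mostly higher. Of 8 tested, 5 were higher and 1 lower, with a median log2 fold change of 1.15 beside -0.22 over all tested genes. Irbp18, a C/EBP-family protein that pairs with both crc and Xrp1, was at 164 and 143 TPM in the mutant libraries and at 44.5 and 40.3 TPM in the control libraries (log2 fold change 1.83, SE 0.12, adjusted p = 0.000734, limma). Xrp1, a stress-induced bZIP factor, was at 660 and 690 TPM in the mutant libraries and at 255 and 247 TPM in the control libraries (log2 fold change 1.42, SE 0.10, adjusted p = 0.000765, limma). Both estimates lie above the 0.62 of crc, a difference between genes that was not tested. The ratio of crc to Irbp18 mRNA was 6.71 and 7.33 in the mutant libraries and 17.1 and 16.0 in the control libraries, and that of crc to Xrp1 was 1.66 and 1.52 in the mutant libraries and 2.98 and 2.60 in the control libraries.

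The damage factor p53 and REPTOR, a transcription factor held back by TOR, were also higher, with log2 fold changes of 1.72 (adjusted p = 0.00191, limma) and 1.05 (adjusted p = 0.00324, limma). The C/EBP gene slbo, named after its value was seen, was at 1.93 and 2.42 TPM in the mutant libraries and at 0.49 and 0.18 TPM in the control libraries (adjusted p = 0.0173, limma). It missed the threshold when control replicate 1 (adjusted p = 0.0562), control replicate 2 (0.0859) or mutant replicate 1 (0.0521) was left out. The lower gene was foxo, the insulin-restrained activator of Thor, also named after its value was seen. It was at 11.8 and 13.1 TPM in the mutant libraries and at 22.6 and 19.9 TPM in the control libraries (log2 fold change -0.72, adjusted p = 0.0116, limma), and it missed the threshold when control replicate 1 (adjusted p = 0.102), control replicate 2 (0.0684) or mutant replicate 1 (0.0667) was left out.

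Subunits of eIF2 and of its exchange factor eIF2B moved little. Of 8 tested, 1 was higher and 0 lower, and their median log2 fold change was 0.08. The higher gene was eIF2Balpha, a regulatory subunit that senses phosphorylated eIF2, at 44.2 and 45.6 TPM in the mutant libraries and at 33.9 and 34.9 TPM in the control libraries (log2 fold change 0.37, adjusted p = 0.0379, limma). It missed the threshold whichever library was left out, with adjusted p = 0.227 and 0.206 for control replicates 1 and 2 and 0.0733 and 0.0706 for mutant replicates 1 and 2, and with a constant variance prior (0.0538). The kinase substrate itself, eIF2alpha, chosen after its value was seen, was at 267 and 297 TPM in the mutant libraries and at 248 and 252 TPM in the control libraries (adjusted p = 0.24, limma). Under median-ratio scaling 3 of the 8 were higher, eIF2alpha among them (0.0247).

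Factors that let ribosomes restart after an upstream reading frame, as on crc, gave 2 higher and 0 lower of 4. MCTS1, which acts in a pair with DENR, was at 185 and 182 TPM in the mutant libraries and at 112 and 122 TPM in the control libraries (log2 fold change 0.65, adjusted p = 0.00881, limma). eIF2D, a related factor in a single chain, was at 45.0 and 43.8 TPM in the mutant libraries and at 23.3 and 24.9 TPM in the control libraries (log2 fold change 0.85, adjusted p = 0.00453, limma). DENR, named after its value was seen, was at 72.7 and 106 TPM in the mutant libraries and at 117 and 138 TPM in the control libraries (log2 fold change -0.52, adjusted p = 0.0914, limma). It passed the threshold as lower without mutant replicate 2 (0.0434), which made the list's count 1 lower of 4. MCTS1 missed the threshold when either control replicate was left out (adjusted p = 0.0942 for replicate 1 and 0.0703 for replicate 2), and eIF2D when control replicate 1 was (0.0612).

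**Figure D3:**
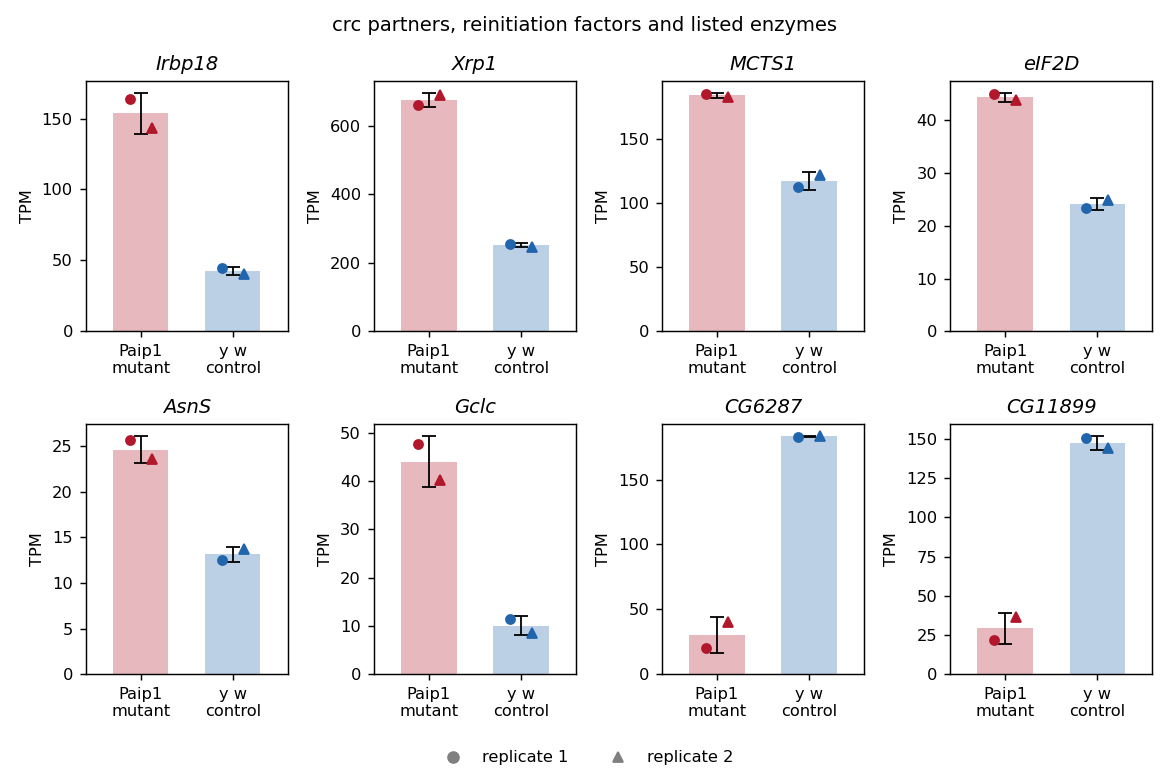
TPM of Irbp18, Xrp1, MCTS1, eIF2D, AsnS, Gclc, CG6287 and CG11899 in Paip1 mutant and y w control libraries; bars are group means with SD over 2 libraries, and symbols are the libraries. The mutant libraries lie above the control libraries in the first 6 panels and below them for CG6287 and CG11899.

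Enzymes of amino acid, folate and related metabolism, a group that includes ATF4 targets of mammals or flies, gave calls in both directions. Of 14 tested, 4 were higher and 4 lower, beside 15.6% and 29.1% of all tested genes. The lower count lies near its background. The median log2 fold change of the list was -0.31. Gclc, the catalytic subunit of the enzyme that joins glutamate to cysteine on the way to glutathione, was at 47.8 and 40.3 TPM in the mutant libraries and at 11.5 and 8.65 TPM in the control libraries (log2 fold change 2.03, adjusted p = 0.00146, limma). The listed numbered genes CG6287 and CG11899 were lower. CG6287 was at 20.6 and 40.1 TPM in the mutant libraries and at 183 TPM in each control library (log2 fold change -2.63, SE 0.30, adjusted p = 0.00344, limma). CG11899 was at 22.2 and 36.3 TPM in the mutant libraries and at 150 and 144 TPM in the control libraries (log2 fold change -2.33, SE 0.24, adjusted p = 0.00233, limma). These 3 calls held whichever library was left out.

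Cth, which makes cysteine from cystathionine, was lower as well (log2 fold change -0.79, adjusted p = 0.00522, limma), a call lost without control replicate 1 or 2 (0.0587 and 0.0683). The other 4 called enzymes were named after their values were seen. Asparagine synthetase, AsnS, was at 25.7 and 23.5 TPM in the mutant libraries and at 12.6 and 13.7 TPM in the control libraries (log2 fold change 0.86, adjusted p = 0.00603, limma), a call lost without control replicate 1 or 2 (0.0676 and 0.0525). Lactate dehydrogenase, Ldh, was at 230 and 375 TPM in the mutant libraries and at 44.6 and 11.7 TPM in the control libraries (log2 fold change 3.61, SE 0.62, adjusted p = 0.00995, limma). The control libraries differed widely for Ldh, and it missed the threshold when mutant replicate 1 (adjusted p = 0.0783) or 2 (0.086) was left out. Pepck1 was higher and pug lower by 0.60 and -0.52 on the log2 scale (adjusted p = 0.0461 and 0.0361, limma). Neither held with a library left out, whichever it was, with adjusted p from 0.0888 to 0.252 for Pepck1 and from 0.0693 to 0.212 for pug, and neither held with no filter on low values (0.0971 and 0.0838). The constant variance prior ended the call of Pepck1 (0.0658), and common-sum (0.0704) and median-ratio scaling (0.142) that of pug.

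Of 5 tested amino acid transporters, 0 were higher and 2 lower, beside 15.6% and 29.1% of all tested genes. The light chain mnd was at 6.32 and 10.2 TPM in the mutant libraries and at 30.1 and 29.6 TPM in the control libraries (log2 fold change -1.77, adjusted p = 0.00415, limma). The heavy chain CD98hc was at 126 and 156 TPM in the mutant libraries and at 234 and 235 TPM in the control libraries (log2 fold change -0.74, adjusted p = 0.0117, limma), a call lost without control replicate 1 or 2 (0.09 and 0.0933). Under median-ratio scaling 2 transporters were higher and 2 lower.

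**Figure D4:**
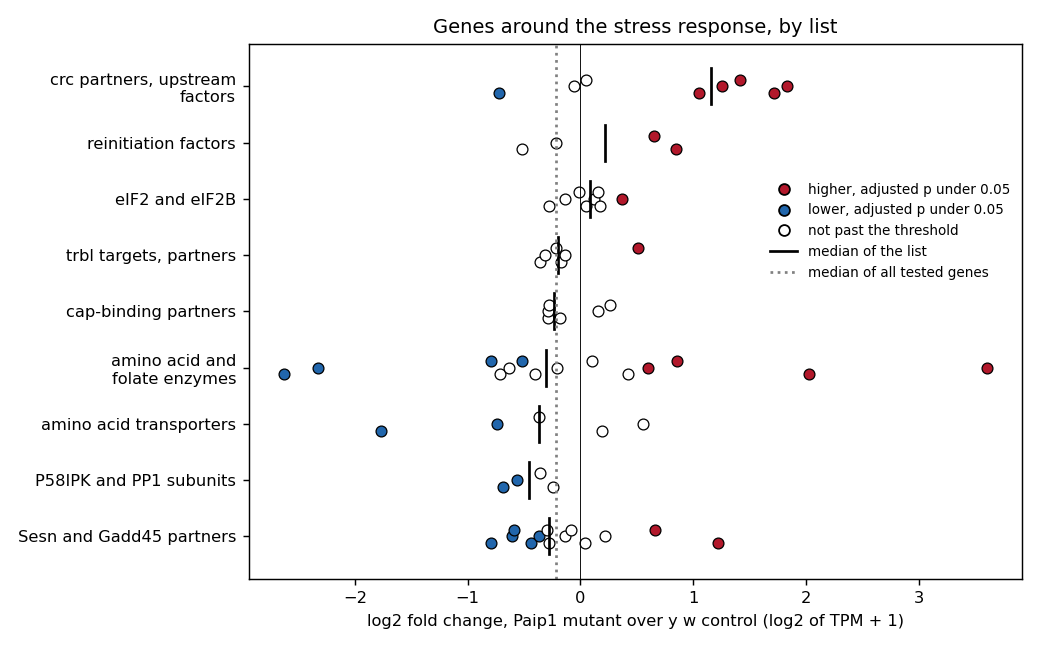
Log2 fold change, Paip1 mutant over y w control on log2(TPM + 1), of 68 tested genes in 9 lists; filled points passed an adjusted p of 0.05, black bars are list medians and the dotted line is the median of all tested genes at -0.22. The list with crc partners and upstream factors has its median at 1.15. The list labelled amino acid and folate enzymes also holds Ldh and Pepck1, and it spreads from -2.63 to 3.61, the value of Ldh.

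Of 4 tested genes for PEK inhibitor P58IPK and catalytic subunits of protein phosphatase 1, the enzyme that PPP1R15 directs, 0 were higher and 2 lower. Pp1-87B, the most abundant, was at 234 and 262 TPM in the mutant libraries and at 362 and 371 TPM in the control libraries (log2 fold change -0.56, adjusted p = 0.0139, limma), a call lost without control replicate 1 or 2 (0.103 and 0.119). Pp1alpha-96A had a log2 fold change of -0.69 (adjusted p = 0.0175, limma), lost without control replicate 1 or 2 (0.0902 and 0.133) or mutant replicate 1 (0.0686). The catalytic subunit flw, named after its value was seen, did not pass the threshold (log2 fold change -0.36, adjusted p = 0.088, limma). A contrast between PPP1R15 and the catalytic subunits was not tested.

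Cap-binding and related partners of Thor gave 0 higher and 0 lower of 6 tested. The most abundant were eIF4E1, given above, and the kinase Lk6, which phosphorylates eIF4E, at 191 and 190 TPM in the mutant libraries and at 194 and 149 TPM in the control libraries (adjusted p = 0.413, limma). Among 6 tested targets and partners of trbl, 1 was higher and 0 lower. It was the ubiquitin ligase gene neur (log2 fold change 0.51, adjusted p = 0.0211, limma), a call lost whichever library was left out (adjusted p from 0.0622 to 0.144) and with no filter on low values (0.0551). The String gene stg, named after its value was seen, was at 65.4 and 85.3 TPM in the mutant libraries and at 73.5 and 96.4 TPM in the control libraries, and the groups overlapped.

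Among 13 tested partners of Sesn and Gadd45 in the TOR, p38 and JNK pathways, 2 were higher and 5 lower. Of all tested genes 15.6% were higher and 29.1% lower, so the higher count lies near its background. puc, a JNK phosphatase that is itself a JNK target, was at 56.4 and 54.3 TPM in the mutant libraries and at 24.4 and 21.9 TPM in the control libraries (log2 fold change 1.22, adjusted p = 0.00188, limma). Mekk1, a MAP kinase kinase kinase of this route, also chosen after its value was seen, was at 44.0 and 46.0 TPM in the mutant libraries and at 44.5 and 43.1 TPM in the control libraries (log2 fold change 0.04, adjusted p = 0.779, limma). The p38 kinase p38b and its activator lic were lower, with log2 fold changes of -0.79 (adjusted p = 0.00585, limma) and -0.61 (adjusted p = 0.0125, limma). Tor was lower too (log2 fold change -0.59, adjusted p = 0.0159, limma). Without control replicates 1 and 2 none of these 3 calls held, with adjusted p of 0.0569 and 0.0722 for p38b, 0.0801 and 0.123 for lic and 0.135 and 0.0813 for Tor. Those of lic and Tor were also lost without mutant replicate 1 (0.0578 and 0.0745), and that of Tor without mutant replicate 2 (0.0594). The remaining calls, named after their values were seen, were p38a (higher) and the GATOR1 genes Iml1 and Nprl3 (lower), and each was lost without control replicate 1 (0.129, 0.233 and 0.162), control replicate 2 (0.123, 0.206 and 0.252) or mutant replicate 2 (0.0569, 0.0682 and 0.0801). Those of Iml1 and Nprl3 were also lost without mutant replicate 1 (0.0871 and 0.123) and under median-ratio (0.163 and 0.124) and common-sum scaling (0.0873 and 0.0839). With no filter on low values p38a (0.0599) and Nprl3 (0.114) missed the threshold, as did Nprl3 with a stricter filter, a mean of 5 TPM or more (0.0584), and Iml1 with a constant variance prior (0.0538).

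Some markers of cell types differed between the genotypes as well. In bulk RNA fewer cells of a type and less RNA per cell cannot be told apart. The counts below stand beside 15.6% of all tested genes called higher and 29.1% called lower. Those shares are from the fit with no library left out. With 1 library left out fewer of all tested genes were called in either direction. Marker counts from such fits are therefore not to be read beside those shares. The fat body count, 2 of 6 lower, lies near the share of all genes called lower. All 10 markers of wing disc epithelium were present, with summed levels of 539 and 649 TPM in the mutant libraries and 1068 and 1041 TPM in the control libraries, and 9 of the 10 were lower. Without control replicate 1 or 2 that count was 2, and without mutant replicate 1 it was 6. Differentiated muscle markers were higher in 8 of 8 cases, and in at least 7 with any 1 library left out, and summed to 227 and 158 TPM in the mutant libraries and to 21.2 and 34.9 TPM in the control libraries. Hemocyte markers were higher in 3 of 7 tested and summed to 62.1 and 72.0 TPM in the mutant libraries and to 41.1 and 52.4 TPM in the control libraries. The hemocyte count was 0 without mutant replicate 1 or 2, 1 without control replicate 1, 2 without control replicate 2, and 1 with the other pseudocount or with either other filter. Fat body markers were lower in 2 of 6 and summed to 284 and 37.2 TPM in the mutant libraries and to 1380 and 494 TPM in the control libraries. The fat body count was 0 without control replicate 1, 1 without mutant replicate 2 or with no filter, and 3 with the other pseudocount or the stricter filter. Adult muscle precursor markers were lower in 4 of 5 and summed to 34.3 and 46.8 TPM in the mutant libraries and to 104 and 93.3 TPM in the control libraries. The precursor count was 1 without control replicate 1 or 2, and 2 without mutant replicate 1 or with no filter. Of tracheal markers 2 of 5 were higher and 2 lower, and of neuron and glia markers 0 of 2 tested were higher and 1 was lower. The untested repo, brp and nSyb were under 1 TPM in all libraries, and their mutant libraries lay above their control libraries. The glial marker repo was at 0.95 and 0.91 TPM in the mutant libraries and at 0.08 and 0.13 TPM in the control libraries. With no filter it was called higher (log2 fold change 0.80, adjusted p = 0.0156, limma). Without control replicate 1 no tracheal, neuron or glia marker was called, and without control replicate 2 the only one was 1 lower tracheal marker. The lower neuron and glia call was also lost without mutant replicate 1, with no filter and under median-ratio scaling, and with no filter 1 tracheal marker was lower. No listed marker was at 0 in all libraries. The part of these cells in the levels of the 8 genes was not tested.

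The genes of most like pattern were found by the root mean square distance between log2(TPM + 1) profiles centred on their own means over the 4 libraries, among 3793 named genes whose mean reached 10 TPM. For Gadd45 they were the matrix protease gene Mmp1 and the NF-kappaB gene Dif, both at a distance of 0.12. Mmp1 was at 346 and 363 TPM in the mutant libraries and at 43.7 and 34.4 TPM in the control libraries. For Thor they were Mocs1 (distance 0.095) and Gclc (0.12), and for trbl QC (0.048) and Ugt302C1 (0.056). For crc they were cindr (0.037) and mei-9 (0.04), for PPP1R15 BI-1 and mys (both 0.038), and for PEK sdt (0.036) and zip (0.046). BI-1, a cell death regulator of the endoplasmic reticulum membrane, was at 178 and 195 TPM in the mutant libraries and at 119 and 112 TPM in the control libraries. For Gcn2 they were IP3K1 (0.027) and Lk6 (0.05). For Sesn they were smo (0.011) and Act42A (0.014), both far more abundant, and the pseudocount draws in the profile of a gene as scarce as Sesn.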

How the data were processed

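Per the labels' protocols, Trizol was used to extract RNA and an Illumina HiSeq instrument to sequence it. The submitters' processing notes name FastQC, TopHat, RSEM and DESeq as tools and dm6 as build, and give neither version nor role. The authors deposited 1 value per gene and library with no unit in the header, read here as TPM from the library sums; TPM keeps no read depth, so counting error is unknown and precision rests on 2 libraries per group. Further columns the authors deposited are, per the file headers, their own comparison (fold ratio, log2 of that ratio, p-value, adjusted p-value); the other 2 equal the means of each group's library values. For strand use and filters before deposit, the sources used here say nothing.

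The test was limma 3.58.1 (R 4.3.3) on log2(TPM + 1), two-sided, with a variance trend, over the 8605 genes that reached 1 TPM in 2 or more libraries. All 8 genes passed that filter. The fit was also run on simulated data with large planted changes and the same spread for every gene. That run does not cover changes as small as those of crc, PEK and PPP1R15. The pseudocount understates changes of low genes. Alternatives were another pseudocount, 2 other filters, 2 scalings, a constant variance prior, the replicate number as a block and each library left out. Named genes are the 8, up to 4 called genes per list by smallest p (the 2 most abundant where none was called) and the 2 genes of most like pattern per member. Genes outside this rule (further called genes of a list, DENR, eIF2alpha, stg, Mekk1, flw, Shmt, path, S6k, overlapping and neighbouring genes) were chosen after their values were seen. The genes and lists were chosen with earlier results of these data known. No 2 libraries held the same values. Gcn1, listed as a partner, was not matched. Symbols and coordinates came from Ensembl annotation 115. Sequences were not used here. Python 3.11.15 (pandas 2.3.3, matplotlib 3.10.9) made the tables and figures.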

Additional observations from a re-analysis of the deposited data

How the results depend on the processing

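The calls of Gadd45, Thor and trbl, and the absence of a call for Gcn2 and Sesn, held under every alternative run, except that Sesn was not among the genes of the stricter filter, a mean of 5 TPM or more. Those of crc, PEK and PPP1R15 held with a pseudocount of 0.1 TPM, no filter, the stricter filter, both scalings, a constant variance prior and the replicate block. With 1 library left out at a time the log2 fold changes ranged from 0.47 to 0.72 for PEK, 0.50 to 0.74 for crc and 0.59 to 0.77 for PPP1R15, and the number of the 8 called higher from 3 to 4. Over all tested genes the number higher then ranged from 607 to 1089, against 1346, and the number lower from 406 to 2184, against 2506. Over the listed genes around them those ranges were 7 to 11 higher, against 15, and 3 to 14 lower, against 14. These fits have 1 residual degree of freedom in place of 2. The log2 fold change of Lk6 turned to -0.02 without control replicate 2, and was at most 0.35 with another library left out. The next count covers the called genes of the lists, the 2 most abundant genes of the list with no call, and Paip1. Of 223 values of these genes under the other settings, 207 kept side and direction and 16 lost the call. The fits with 1 library left out are not in that count, and calls were lost more often in them. Most uncalled genes were outside that count, and some of them gained a call. Under median-ratio scaling path and S6k, for example, were called higher (adjusted p = 0.0147 and 0.0229, limma).

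Of all calls 34.9% were higher, against 49.8% under median-ratio scaling, 44.3% under common-sum scaling and 47.4% with no filter. That share was 59.9% without control replicate 1, 57.7% without control replicate 2, 47.6% without mutant replicate 1 and 33.3% without mutant replicate 2, so leaving out either control library turned the balance to more higher than lower calls. The deviations of same-numbered libraries correlated at 0.0648 over 8605 genes, and nothing in the labels pairs the libraries. With the replicate block 1403 genes were higher and 2843 lower, and no call among the 8 changed. The block ended the call of Pepck1 (adjusted p = 0.0529, limma). It called DENR (0.0226) and Shmt (0.0291) lower and path higher (0.0443). It also moved the fat body markers called lower to 5, the hemocyte markers called higher to 2 and the neuron and glia markers called lower to 2. The scarce Sesn transcript, at 1.00 to 2.36 TPM, is where low signal limits the comparison.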
